A study of Mus musculus with 38 samples.

Results

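The genes described here are the epidermal growth factor (EGF) family ligands Hbegf, Areg, Ereg, Tgfa and Btc, their receptor Egfr and the sheddase Adam17. They are 7 of the 55487 Ensembl genes counted in every library, and all 7 were found by symbol. The set was chosen by symbol with earlier results of these data known, and Hbegf was selected on its measured levels in BV2 cells under hypoxia, alone and in co-culture, and in hypoxic GL261 cells. Those values of Hbegf are therefore given as a description, with no test.

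The series holds 38 RNA-seq libraries of mouse cells, in 18 groups. BV2 is an immortalised murine microglial line, and GL261 is a murine glioma line, here stably carrying the plasmid pEGFP-N1. BMDM are bone marrow-derived macrophages, primary cells of wild-type mice. In the first experiment each cell grew alone, BV2 also grew in direct co-culture with GL261 at a ratio of 1:2, and BMDM with GL261 at 1:1, all at 21% oxygen (normoxia) or below 0.1% oxygen (hypoxia) for 16 h. In the panobinostat experiment, BV2 and BMDM grown alone were given the solvent dimethyl sulfoxide (DMSO) in normoxia and in hypoxia, and 10 nM of the histone deacetylase inhibitor panobinostat in hypoxia. BV2 cultures had 2% serum and BMDM cultures 10%, so that BV2 and BMDM differ in serum as well as in kind. GL261 libraries came from growth alone or with BV2 cells. The name first experiment is used here for all cultures without DMSO or panobinostat. The sample titles do not say that these were run together. Counts of BMDM grown alone or with GL261 were deposited apart from those of BV2 and GL261, and no GL261 library came with them. GL261 levels set beside BMDM are those deposited with BV2. BV2 and GL261 are each 1 line. Groups had 2 libraries, except the BMDM co-cultures with 3, and the labels call replicates biological. How cells were separated after co-culture is not given in the sources used here.

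Ligands of this family are made as precursors anchored in the membrane, and a metalloprotease, chiefly ADAM17, cuts them to release the soluble factor. The freed factor binds EGFR on the same or a nearby cell, which then pairs with another receptor of the ErbB family and signals through the RAS and ERK cascade. EGFR is a well-known oncogene of glioma, and macrophages and microglia can be both sources and targets of EGFR ligands in brain tumours.

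Library totals ran from 9634700 to 27238933 counts, so that 3 counts, taken as the floor of detection, correspond to 0.110 to 0.311 CPM, the count scaled to a common library total. Intervals and floors cover counting error only. Of 4 textbook hypoxia targets, Vegfa, Slc2a1 and Bnip3 were each higher in every hypoxic library than in any normoxic library of the same cell and experiment. Car9, the other one, was higher in hypoxia in GL261, overlapped between oxygen levels in BV2 alone, and in BMDM alone stood at 8.35 and 9.05 CPM in normoxia and 4.85 and 4.25 CPM in hypoxia. The 8 macrophage markers summed to 1.67 to 24.0 CPM in GL261 libraries, 1956.5 to 2675 CPM in the first BV2 libraries and 4268 to 7455 CPM in the first BMDM libraries. BMDM of the panobinostat experiment stood apart. Their 5 fibroblast markers (Col1a1, Col1a2, Dcn, Lum, Pdgfra) summed to 2528 to 19509 CPM, against 59.9 to 541.6 CPM in the BMDM of the first experiment, and their macrophage markers summed to 609 to 7636 CPM. Both BMDM sets therefore carry the same label but differ in marker content, and their values are kept apart throughout. In such bulk libraries fewer cells of a type and less RNA per cell cannot be told apart.

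By the GENCODE M21 annotation of GRCm38, the build of the deposited counts (mm10), Areg lies at chr5:91139599-91148432 on the plus strand, beside Ereg at chr5:91074622-91093646 (plus) and Btc at chr5:91357261-91402994 (minus). Tgfa lies at chr6:86195223-86275719 (plus), Egfr at chr11:16752203-16918158 (plus) and Adam17 at chr12:21323509-21373632 (minus). Adam17 shares 311 exonic bases with Iah1 on the opposite strand, which had 20483 counts over all libraries, and the strand setting of the counting is not given in the sources used here, so a part of the Adam17 counts is uncertain. Ereg shares 141 exonic bases with the antisense gene Gm19610, which had 65 counts in all. Identifiers are ENSMUSG00000029378 (Areg), ENSMUSG00000029377 (Ereg), ENSMUSG00000029999 (Tgfa), ENSMUSG00000082361 (Btc), ENSMUSG00000020122 (Egfr) and ENSMUSG00000052593 (Adam17).

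Promoters of 5 of the 7 genes were matched in the RefSeq table of GRCm38.p6, from 250 bases before to 50 after the start of the gene, and Hbegf and Ereg were not. Areg was called higher with hypoxia in BMDM of the first experiment, as was Hbegf, and Tgfa and Adam17 fell together in hypoxic GL261 cells. The promoters of Areg, Tgfa and Adam17 are shown 5′ to 3′ along the gene's strand (Areg chr5:91139349-91139648, plus; Tgfa chr6:86194972-86195271, plus; Adam17 chr12:21373583-21373882, minus). Capitals mark a match, on either strand, to ACGTG or GCGTG (cores of the hypoxia response element), TGANTCA (AP-1) or TGACGTCA (the cAMP response element).
Areg: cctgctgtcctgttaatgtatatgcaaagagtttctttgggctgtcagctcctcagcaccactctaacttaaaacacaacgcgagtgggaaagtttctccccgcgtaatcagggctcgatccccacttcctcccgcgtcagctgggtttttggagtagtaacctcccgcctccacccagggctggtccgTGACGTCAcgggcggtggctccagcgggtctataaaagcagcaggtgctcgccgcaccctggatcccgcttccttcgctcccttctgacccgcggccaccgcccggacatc
Tgfa: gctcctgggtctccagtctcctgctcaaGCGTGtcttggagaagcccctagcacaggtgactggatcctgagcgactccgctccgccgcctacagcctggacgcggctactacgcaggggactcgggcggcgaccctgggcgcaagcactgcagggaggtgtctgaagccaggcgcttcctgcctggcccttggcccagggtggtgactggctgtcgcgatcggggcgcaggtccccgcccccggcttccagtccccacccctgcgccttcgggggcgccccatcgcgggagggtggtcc
Adam17: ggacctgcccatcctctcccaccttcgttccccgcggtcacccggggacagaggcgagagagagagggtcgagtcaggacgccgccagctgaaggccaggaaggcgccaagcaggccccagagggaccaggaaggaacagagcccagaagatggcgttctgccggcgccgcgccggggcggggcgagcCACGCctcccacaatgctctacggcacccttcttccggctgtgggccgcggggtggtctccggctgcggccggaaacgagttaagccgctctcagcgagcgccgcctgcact
The Areg promoter held TGACGTCA with its first base at -61 from the start, a motif found in 1.79% of the 32851 promoters in the table. GCGTG stood at -222 in Tgfa and, on the opposite strand, at -62 in Adam17, and it occurred in 32.4% of all promoters. The Btc promoter held GCGTG at -59 and -11. The Egfr promoter held none of the 4 motifs. ACGTG occurred in 19.6% and TGANTCA in 7.81% of all promoters. A match is a description of these letters and no site of binding was measured.

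GL261 cells carried the highest Hbegf levels of the series, with higher values still under hypoxia, where Tgfa and Adam17 fell. Hbegf (ENSMUSG00000024486, chr18:36504927-36515805, minus) encodes heparin-binding EGF-like growth factor, a ligand of EGFR and ERBB4. In GL261 cells grown alone it stood at 183 and 159.7 CPM in the normoxic libraries and at 569 and 472 CPM in the hypoxic ones. In GL261 co-cultured with BV2 it stood at 144 and 148 CPM in normoxia and at 739 and 630.4 CPM in hypoxia. Hypoxic and normoxic libraries did not overlap in either culture.

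As fitted by edgeR, the hypoxia difference of Hbegf was 1.66 ± 0.17 in GL261 alone (log2 fold change ± SE) and 2.29 ± 0.18 in co-culture, given as a description since hypoxic GL261 levels had led to the choice of the gene. Genes are called at an adjusted p below 0.05 in edgeR's quasi-likelihood test, with p adjusted over all genes tested as everywhere below. Among the 15189 genes tested in GL261 alone, 44.6% were called, 23.2% higher and 21.4% lower. In co-culture 52.4% were called, 26.8% higher and 25.6% lower. All 3 members that could be tested in GL261 were called in both cultures, 1 higher and 2 lower, and the 1 higher is Hbegf, from whose call nothing is read. Co-culture with BV2 was called for none of the 3 in GL261, where 0.514% of genes were called in normoxia and 1.39% in hypoxia. The Hbegf difference was 0.45 ± 0.17 in hypoxia and -0.18 ± 0.17 in normoxia.

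**Figure D1:**
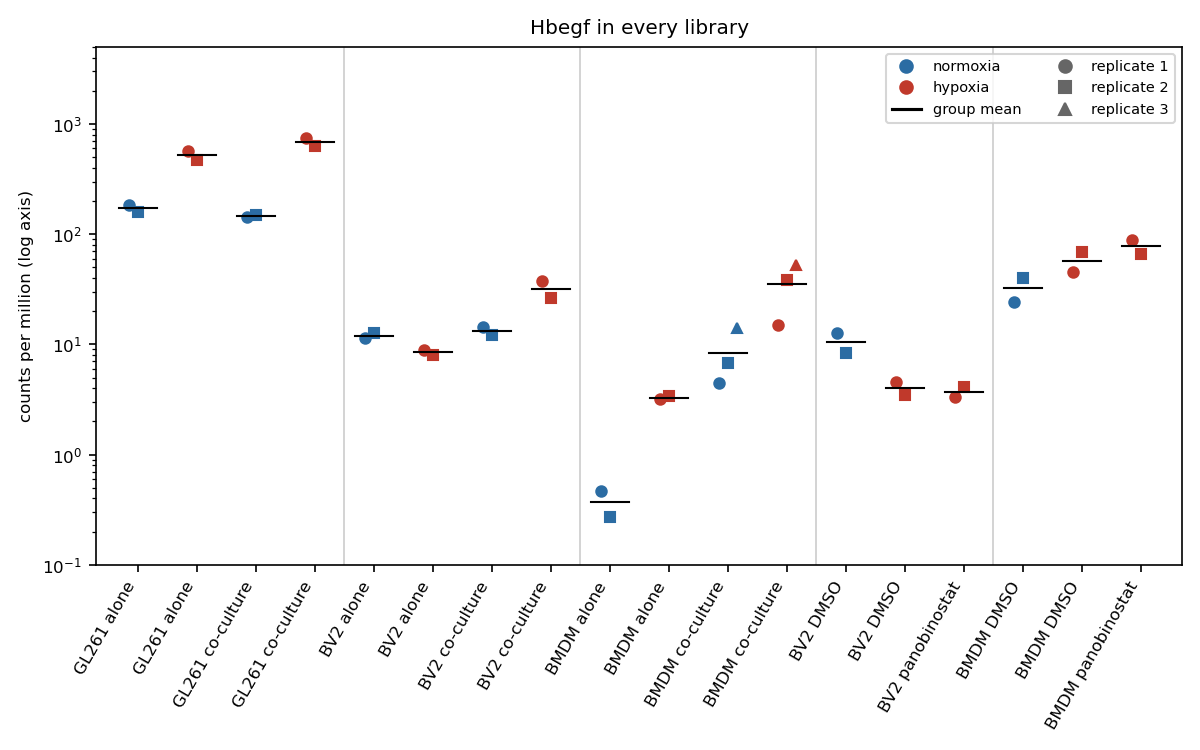
Hbegf in CPM (log axis) in each of the 38 libraries, by group, with replicates as separate symbols and the group mean as a line. The 4 hypoxic GL261 libraries sit between 472 and 739 CPM, above all other libraries, and BMDM grown alone in normoxia sit lowest at 0.471 and 0.272 CPM.

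Tgfa, which encodes transforming growth factor alpha, a ligand of EGFR alone, was a GL261 transcript in the first experiment. It stood at 129 and 142 CPM in normoxic GL261 and at 61.2 and 41.7 CPM in hypoxic GL261 grown alone. In co-cultured GL261 it stood at 151 and 144 CPM in normoxia and at 67.4 and 50.6 CPM in hypoxia. Every hypoxic GL261 library lay below every normoxic one. Tgfa fell by 1.33 ± 0.21 alone (log2, adjusted p = 4.22e-04) and by 1.26 ± 0.21 in co-culture (adjusted p = 4.01e-04).

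BV2 cells grown alone had 1 count of Tgfa in 1 normoxic library and 0 in the other 3 libraries, and all 6 BV2 libraries of the panobinostat experiment had 0 counts. BMDM grown alone had 0 counts in all 4 libraries. In hypoxia, Tgfa was at least 309-fold higher in GL261 than in BV2 grown alone. The BV2 level was set there to the floor of 3 counts in each library. In normoxia the ratio was 6161, with a 95% exact counting interval of 1105 to 243384, since it rests on that 1 count.

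Per kilobase of exon, which allows a comparison between genes, normoxic GL261 alone held 35.4 ± 3.36 CPM per kb of Hbegf and 20.9 ± 1.39 of Tgfa (SD, n = 2). Hypoxic GL261 held 107.7 ± 14.2 of Hbegf and 7.93 ± 2.13 of Tgfa. The ratio of Hbegf to Tgfa counts within a library was 1.42 and 1.13 in normoxic GL261 and 9.29 and 11.3 in hypoxic GL261. In co-cultured GL261 it was 0.958 and 1.02 in normoxia and 11 and 12.5 in hypoxia. Raw counts of the 2 ligands, not scaled for gene length, were near parity in the 4 normoxic libraries. In the 4 hypoxic ones Hbegf exceeded Tgfa at least 9.29-fold. Hypoxic GL261 levels of Hbegf had led to its choice, so these ratios are given as a description.

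In BV2 cells the levels that had named Hbegf were as follows. BV2 alone held 11.4 and 12.6 CPM of Hbegf in normoxia and 8.80 and 8.08 CPM in hypoxia. In co-culture with GL261 they held 14.5 and 12.2 CPM in normoxia and 37.6 and 26.6 CPM in hypoxia. The 2 hypoxic co-culture libraries were above all other BV2 libraries, and the 2 hypoxic libraries of BV2 alone were below its normoxic ones. As fitted, the hypoxia difference was -0.46 ± 0.18 on the log2 scale alone and 1.39 ± 0.17 in co-culture, a difference between the cultures of 1.84 ± 0.24, in a contrast that called 2.19% of all genes. The level in BV2 alone minus that in GL261 alone was -3.68 ± 0.19 on the log2 scale in normoxia and -5.70 ± 0.20 in hypoxia.

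The BV2 libraries with DMSO were not among the samples that had named Hbegf. They held 12.6 and 8.33 CPM of Hbegf in normoxia and 4.60 and 3.46 CPM in hypoxia, with no overlap. Hbegf fell by 1.22 ± 0.35 (log2, adjusted p = 0.0212), 1 of 2 members tested, where 37.5% of 13294 genes were called and 20.2% as lower. Without 1 normoxic library (replicate 1) the fall was no longer called (adjusted p = 0.114), nor without 1 hypoxic library (replicate 2; adjusted p = 0.0951). Panobinostat in hypoxia left 3.32 and 4.09 CPM, with a difference of -0.24 ± 0.36 from DMSO (adjusted p = 0.696). None of the 2 members tested was called by that contrast, in which 14.6% of genes were.

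**Figure D2:**
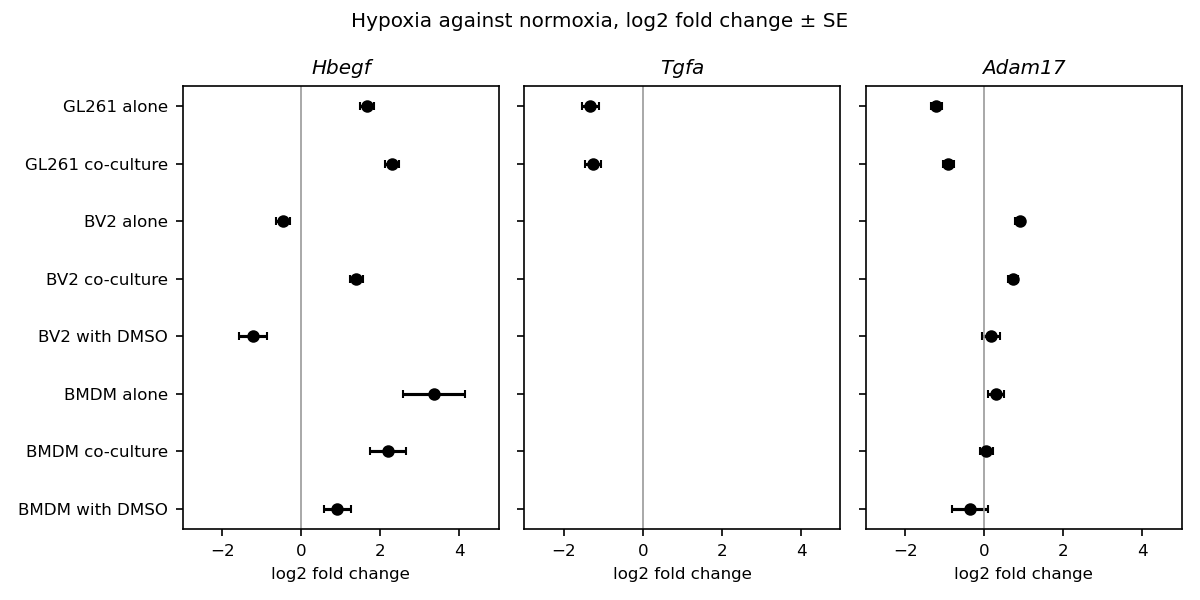
Log2 fold change of hypoxia against normoxia with its SE for Hbegf, Tgfa and Adam17 in each culture. Points right of 0 are higher in hypoxia. Tgfa is drawn for GL261 only, since other cells had too few counts. Hbegf lies at 1.66 and 2.29 in GL261 and at -1.22 in BV2 with DMSO, and Adam17 lies below 0 in GL261 and above 0 in BV2 of the first experiment.

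Co-cultured libraries also held RNA of the partner cell. The share of GL261 RNA was estimated in each library as the median, over 218 genes for BV2 and 134 for BMDM that were nearly specific to GL261, of the level relative to GL261 grown alone. It was 0.761 ± 0.272% (SD, n = 2) in normoxic and 2.21 ± 0.213% in hypoxic BV2 co-cultures. It was 2.38 ± 1.22% (n = 3) in normoxic and 3.73 ± 2.34% in hypoxic BMDM co-cultures, where single libraries ran from 1.27% to 6.28%. BV2 grown alone gave at most 0.0523% and BMDM grown alone at most 0.0439%. The share of BV2 RNA in GL261 co-cultures was 0.772 ± 0.202% in normoxia and 0.230 ± 0.0328% in hypoxia.

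Tgfa, with 1 count in BV2 alone and 0 in BMDM alone, was compared with the level that this partner RNA would give. In BV2 co-cultures 1.03 and 0.603 CPM were measured in normoxia, where the estimated GL261 RNA would give 1.29 and 0.769 CPM. In hypoxia 2.05 and 0.564 CPM were measured against 1.06 and 1.21 CPM. In BMDM co-cultures 2.03, 3.38 and 7.37 CPM were measured in normoxia against 1.72, 2.97 and 4.99 CPM, and 1.66, 1.44 and 7.07 CPM in hypoxia against 0.869, 1.66 and 3.23 CPM. Measured levels lay above the estimate in 6 of the 10 libraries and below it in 4. Those above were mostly BMDM libraries and those below mostly BV2 libraries.

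Tgfa was called higher with co-culture in BV2 (adjusted p = 0.0114 in normoxia, 0.0013 in hypoxia) and in BMDM (adjusted p = 0.0332 and 0.022). With the partner RNA subtracted the BMDM calls were lost (adjusted p = 0.447 and 0.172), and Tgfa no longer passed the filter on low counts in BV2. The BV2 call in normoxia was also lost without replicate 2 of BV2 alone or replicate 1 of the co-culture (adjusted p = 0.106 and 0.0644), and the BMDM calls when either library grown alone was left out (adjusted p from 0.127 to 0.259). The BMDM call in normoxia was lost also without co-culture replicate 2 or 3 (adjusted p = 0.0773 and 0.0677). The level was at least 7.86-fold that of BV2 alone in hypoxia. It was at least 22.4-fold and 17.6-fold that of BMDM alone in normoxia and hypoxia. The lower group was set to 3 counts in each library. In BV2, 14.9% of 14432 genes were called with co-culture in normoxia (5.77% higher) and 15.7% in hypoxia (8.13% higher). In BMDM 1.64% of 14806 genes were called in normoxia (1.57% higher) and 7.11% in hypoxia (4.06% higher).

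For Hbegf the measured level exceeded the estimated partner level in all 10 co-culture libraries. In hypoxic BV2 co-cultures 37.6 and 26.6 CPM were measured where GL261 RNA would give 10.7 and 12.3 CPM. BV2 alone held a mean of 8.44 CPM. Those estimates take GL261 grown alone, at a mean of 520.5 CPM of Hbegf in hypoxia. Hypoxic GL261 in co-culture held 684.7 CPM, and the shares relative to co-cultured GL261 were 2.19% and 2.44%. The partner level would then be higher, and the subtraction did not use it. With the partner RNA subtracted, the fitted difference in hypoxia response between BV2 in co-culture and alone was 1.37 ± 0.32 in place of 1.84. In normoxic BV2 co-cultures 14.5 and 12.2 CPM stood against 1.63 and 0.972 CPM from the partner and a mean of 12 CPM in BV2 alone. The co-culture difference in normoxia was 0.09 ± 0.17.

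In hypoxic BMDM co-cultures Hbegf was measured at 15.1, 38.3 and 52.7 CPM, where the partner RNA would give 8.79, 16.8 and 32.7 CPM and BMDM alone held 3.29 CPM. In normoxic BMDM co-cultures it was measured at 4.44, 6.75 and 14 CPM against 2.17, 3.75 and 6.31 CPM, with 0.371 CPM in BMDM alone. The order of the 3 libraries was the same for the measured and the estimated level at both oxygen levels. Hbegf was called higher with co-culture, by 4.46 ± 0.74 in normoxia (adjusted p = 0.0164) and by 3.32 ± 0.58 in hypoxia (adjusted p = 0.0111). After subtraction neither call held (3.56, adjusted p = 0.129, and 2.34, adjusted p = 0.0777). Both calls were also lost when either BMDM library grown alone at that oxygen level was left out (adjusted p from 0.109 to 0.203).

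**Figure D3:**
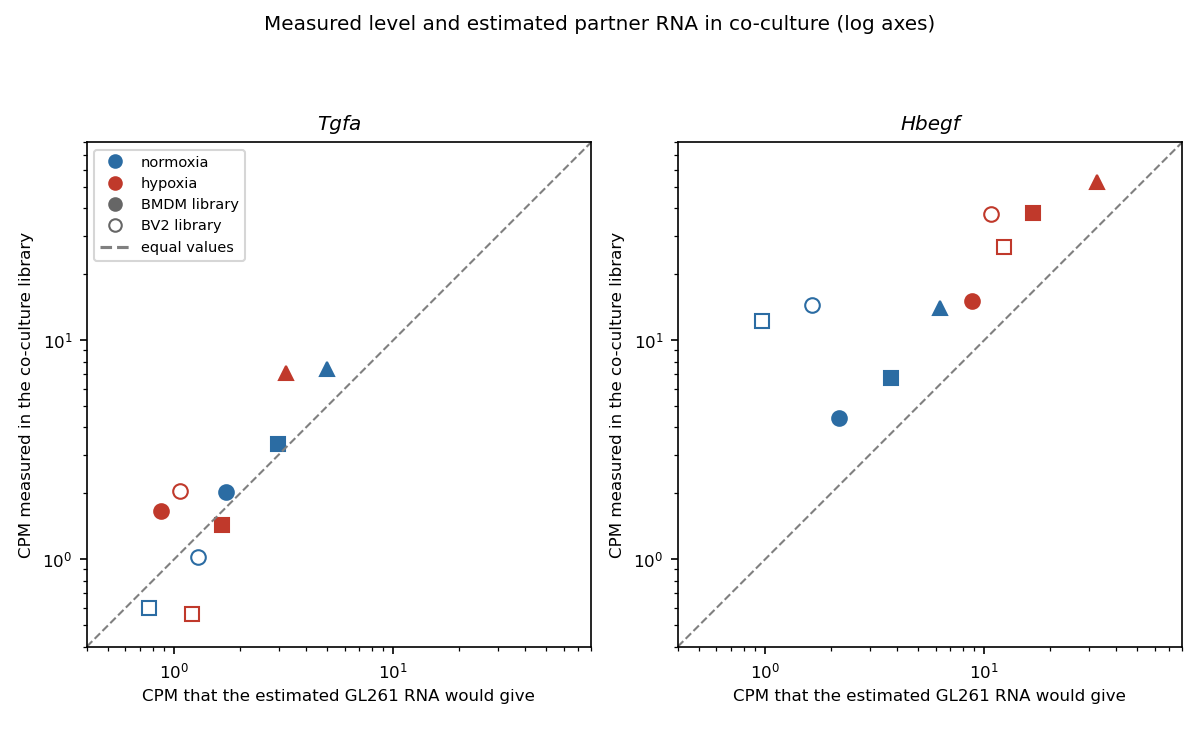
Level measured in each co-cultured BV2 or BMDM library (vertical, CPM, log axis) against the level that its estimated share of GL261 RNA would give (horizontal, CPM, log axis), for Tgfa and Hbegf. The dashed line marks equal values. Tgfa points lie on both sides of the line, those of BMDM mostly above it and those of BV2 mostly below. All 10 Hbegf points lie above it.

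BMDM grown alone had little Hbegf in normoxia and more in hypoxia. The normoxic libraries held 0.471 and 0.272 CPM (8 and 4 counts) and the hypoxic ones 3.19 and 3.38 CPM (48 and 55 counts). Hbegf rose by 3.35 ± 0.79 (adjusted p = 0.012) alone and by 2.20 ± 0.46 (adjusted p = 0.0038) in co-culture. Of the 5 members tested in BMDM, 2 were called higher and none lower at both comparisons, where 23.9% of genes were called alone and 34.8% in co-culture, 13.3% and 17.5% as higher. The call in BMDM alone was lost without either normoxic library or without hypoxic replicate 2 (adjusted p from 0.0549 to 0.0934). With the GL261 RNA subtracted the rise in co-culture was 2.10 ± 0.53 (adjusted p = 0.011).

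BMDM of the panobinostat experiment held far more Hbegf, 24.0 and 40.4 CPM with DMSO in normoxia, 45.0 and 68.5 CPM with DMSO in hypoxia and 89.5 and 66.2 CPM with panobinostat in hypoxia. The hypoxia difference was 0.91 ± 0.34 (adjusted p = 0.17) and that of panobinostat 0.17 ± 0.34 (adjusted p = 0.784). With DMSO in normoxia, BV2 minus BMDM was -1.89 ± 0.35 (adjusted p = 0.00199), and the difference between their hypoxia effects was -2.06 ± 0.50 (adjusted p = 0.079). The fibroblast markers, at 19509 and 19073 CPM with DMSO in normoxia, 2528 and 13183 CPM in hypoxia and 8578 and 13972 CPM with panobinostat, stood high in the same libraries, and their part in these levels was not tested.

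Areg, which encodes amphiregulin, an EGFR ligand made by many immune cells during tissue repair, was detected chiefly in hypoxic BMDM. All 8 GL261 libraries had 0 counts, and the 8 BV2 libraries of the first experiment had at most 2. BMDM alone held 2 and 0 counts in normoxia and 23 and 25 counts (1.53 and 1.54 CPM) in hypoxia. The ratio of their summed levels was 24.3, with a 95% exact counting interval of 6.37 to 206. In BMDM co-cultures the normoxic libraries held 0.0653, 0.482 and 0 CPM and the hypoxic ones 2.44, 12 and 5.00 CPM. Every hypoxic BMDM library of the first experiment lay above every normoxic one.

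Areg rose with hypoxia by 4.67 ± 1.26 in BMDM alone (log2, adjusted p = 0.0215) and by 5.12 ± 0.87 in co-culture (adjusted p = 0.00115). Alone, the call was lost when any of the 4 libraries was left out (adjusted p from 0.0676 to 0.134). The difference between co-culture and growth alone in hypoxia was 2.01 ± 0.78 (adjusted p = 0.145), and 2.42 without hypoxic co-culture replicate 1 (adjusted p = 0.0465). GL261 held no Areg, so that the estimated partner RNA adds 0 CPM. The 5 fibroblast markers summed to 63.4, 159.1 and 541.6 CPM in hypoxic co-culture replicates 1 to 3. They summed to 97.8 and 215.8 CPM in hypoxic BMDM alone. Areg was highest in co-culture replicate 2, which had the middle sum of the 3, whereas replicate 3 had the highest. Dcn, 1 of the 5 markers and singled out after its values were seen, was highest in replicate 2, as given below with Egfr. The part of fibroblast-like cells in Areg was not tested.

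With DMSO, BMDM held 1 and 2 counts of Areg in normoxia and 284 and 7 counts (18 and 0.727 CPM) in hypoxia, so the hypoxic pair was far apart. The difference was 6.59 ± 1.66, with an adjusted p of 0.0974 by edgeR and 1.91e-04 by DESeq2. With panobinostat in hypoxia the libraries held 6.62 and 7.44 CPM, between the DMSO values. The fitted difference was -0.76 ± 1.16 (adjusted p = 0.718), and 3.03 without the high DMSO library. BV2 with panobinostat held 8 and 10 counts against 0 and 1 with DMSO, a ratio of 19.3 with an interval of 3.04 to 802.5, and Areg had too few counts for the fit there.

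Ereg (epiregulin) and Btc (betacellulin), ligands of EGFR and ERBB4, were near or below the floor in most libraries. Ereg had 0 counts in all 8 first BV2 libraries, 1 count in 1 of 8 GL261 libraries and 5 counts in 1 of the 10 first BMDM libraries, hypoxic co-culture replicate 2. It was measurable in BMDM of the panobinostat experiment, at 1.46 and 2.27 CPM with DMSO in normoxia, 0.762 and 3.22 CPM in hypoxia and 4.34 and 3.76 CPM with panobinostat. The hypoxia difference was 0.14 ± 0.70 (adjusted p = 0.914) and that of panobinostat 0.78 ± 0.69 (adjusted p = 0.517), neither of them called, although both panobinostat libraries lay above both hypoxic DMSO ones. Btc reached at most 0.909 CPM in any library. That value was in BV2 with panobinostat, which held 5 and 12 counts against 0 and 0 with DMSO in hypoxia. This was at least 3.00-fold more, with DMSO set to 3 counts in each library.

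Egfr RNA was at the edge of detection in both cell lines and clear only in BMDM. GL261 libraries held 1 to 6 counts, 0.0649 to 0.356 CPM, at both oxygen levels and in both cultures. BV2 of the first experiment had 0 counts in 7 of 8 libraries and 5 in the other, and BV2 of the panobinostat experiment had 0 to 3. BMDM alone held 2.82 and 1.77 CPM in normoxia and 1.33 and 2.28 CPM in hypoxia. BMDM in co-culture held 1.70, 4.14 and 2.12 CPM in normoxia and 1.17, 10.3 and 2.24 CPM in hypoxia.

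The single high value of 10.3 CPM was in hypoxic co-culture replicate 2, and 4.14 CPM was in normoxic replicate 2. Their fibroblast markers summed to 159.1 and 107.2 CPM, below the 541.6 and 183.2 CPM of replicate 3. Dcn, 1 of the 5 and singled out after its values were seen, had its highest levels in the same 2 libraries, at 18 and 9.31 CPM, and its relation to Egfr was not tested. The hypoxia difference of Egfr was -0.09 ± 0.87 in BMDM alone (adjusted p = 0.961) and 0.95 ± 0.69 in co-culture (adjusted p = 0.309), or -0.58 in co-culture without hypoxic replicate 2. The groups overlapped in every one of these comparisons.

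In BMDM of the panobinostat experiment Egfr stood at 33.8 and 33.7 CPM with DMSO in normoxia, 13 and 20.7 CPM with DMSO in hypoxia and 51.3 and 61.9 CPM with panobinostat in hypoxia. The 3 groups did not overlap. None of the 6 members tested in these BMDM was called for hypoxia or panobinostat by edgeR without a replicate block. With the replicate number as a block, edgeR called Egfr (1.48, adjusted p = 0.0271) and Tgfa (5.02, adjusted p = 0.0313) for panobinostat. Among all 14914 genes 0.483% were called for hypoxia and 0% for panobinostat, although 3868 genes had an unadjusted p below 0.05 in the latter and DESeq2 called 2221. Egfr differed by -0.92 ± 0.28 in hypoxia (edgeR adjusted p = 0.124, DESeq2 0.0419) and by 1.46 ± 0.28 with panobinostat (edgeR 0.0644, DESeq2 4.34e-04). Both contrasts share the hypoxic DMSO libraries.

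In the same libraries Tgfa stood at 1 and 0 counts with DMSO in normoxia, 2 and 0 counts in hypoxia and 41 and 44 counts (3.02 and 3.60 CPM) with panobinostat. The ratio to hypoxic DMSO was 41.8, with an interval of 11.2 to 350.4. The fitted difference was 4.99 ± 1.00 (edgeR adjusted p = 0.0658, DESeq2 0.00544). BV2 cells with panobinostat held 0 counts of Tgfa in both libraries.

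With DMSO in normoxia, BV2 minus BMDM was -8.38 ± 0.62 on the log2 scale for Egfr (edgeR adjusted p = 9.57e-06). For Ereg it was -7.78 ± 1.40 (edgeR adjusted p = 0.00212). Those BV2 libraries held 2 and 1 counts of Egfr and 0 and 0 of Ereg, and the BMDM libraries 21 and 36 counts of Ereg. The size of the Ereg difference therefore rests on how the fit treats 0 counts. In that comparison 3 of 6 members tested were called, all lower in BV2. It called 44.2% of 15955 genes, 27.1% as lower. The hypoxia and panobinostat effects were called as different between BV2 and BMDM for none of the 6 by edgeR, in comparisons that called 0.664% and 0.0251% of genes. DESeq2 called the difference in hypoxia effect for Hbegf (adjusted p = 0.00758) and Areg (adjusted p = 0.0361). The fibroblast marker sum was 11.9 to 24.3 CPM in those BV2 libraries and 2528 to 19509 CPM in the BMDM. The plot of members against marker sums shows both quantities, and the part of fibroblast-like cells in Egfr, Ereg and Hbegf of these BMDM was not tested. Within the 6 BMDM libraries of that experiment, the panobinostat libraries had the highest Egfr. Their marker sums, 8578 and 13972 CPM, lay below those of normoxic DMSO and overlapped those of hypoxic DMSO, 2528 and 13183 CPM. For each replicate number the sum was higher with panobinostat than with hypoxic DMSO. The 8 macrophage markers summed to 7636 and 5210 CPM with DMSO in normoxia and 2299 and 3548 CPM with DMSO in hypoxia. They summed to 609 and 1615 CPM with panobinostat. The 4 dendritic cell markers summed to 2.16 and 3.74 CPM with hypoxic DMSO and to 14.8 and 13.8 CPM with panobinostat. Marker content therefore differed between the groups compared, and its part in the levels of the members was not tested.

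**Figure D4:**
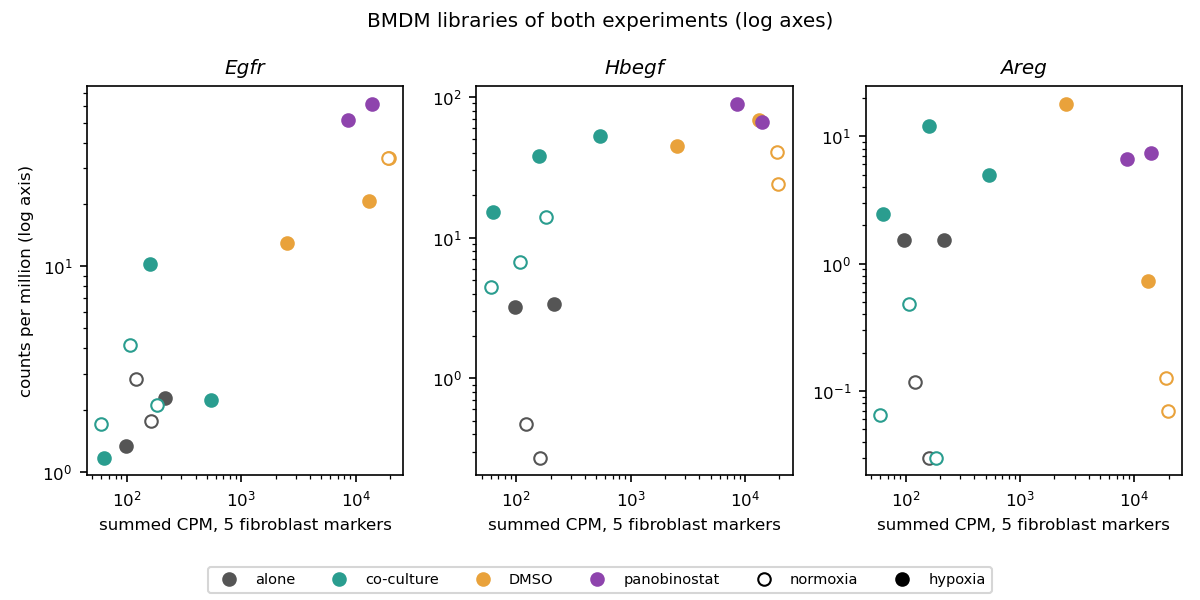
Egfr, Hbegf and Areg (vertical, CPM, log axis) against the summed CPM of 5 fibroblast markers (horizontal, log axis) in the 16 BMDM libraries of both experiments, 1 point per library; 0 counts are drawn at 0.03. Libraries of the panobinostat experiment lie to the right, from 2528 to 19509 CPM, and have the higher Egfr, whereas Areg is at 0.727 CPM or above in the hypoxic libraries on both sides and at most 0.482 CPM in the normoxic ones.

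Adam17, which encodes the metalloprotease that sheds the ligand precursors, moved in opposite directions in the 2 lines in the first experiment. In GL261 alone it stood at 129 and 149 CPM in normoxia and at 61.2 and 52.8 CPM in hypoxia. In GL261 co-cultures it stood at 155 and 148 CPM in normoxia and 71.5 and 82.4 CPM in hypoxia. In BV2 alone it stood at 196 and 236 CPM in normoxia and at 361 and 411 CPM in hypoxia, and in BV2 co-cultures at 251 and 203 CPM against 339.9 and 349 CPM. None of these 4 pairs of groups overlapped.

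Adam17 fell with hypoxia by 1.22 ± 0.14 in GL261 alone (adjusted p = 6.10e-05) and by 0.91 ± 0.14 in GL261 co-cultures (adjusted p = 2.36e-04). It rose by 0.89 ± 0.12 in BV2 alone (adjusted p = 1.18e-05), where 61.9% of genes were called (30.9% higher, 31% lower), and by 0.72 ± 0.12 in BV2 co-cultures (adjusted p = 9.28e-05), where 67.3% were (35.2% higher). Of the 3 members tested in BV2, 2 were called in each culture, Adam17 and Hbegf, the latter on values that had led to its choice, from which nothing is read. The difference between the hypoxia effects of the lines grown alone was 2.21 ± 0.20 (adjusted p = 1.77e-07), in a comparison that called 37.4% of 16882 genes. BV2 held more Adam17 than GL261, by 0.80 ± 0.14 in normoxia (adjusted p = 4.47e-05) and by 3.01 ± 0.15 in hypoxia (adjusted p = 1.39e-12). All 3 members tested, Hbegf among them, were called between the lines, as were 73.2% of genes in normoxia and 76.6% in hypoxia. Nothing is read from the calls of Hbegf, whose levels in these cells had led to its choice.

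In BV2 with DMSO no difference was called. Normoxic libraries held 389 and 265 CPM and hypoxic ones 317 and 354 CPM, which overlap, with a difference of 0.17 ± 0.23 (adjusted p = 0.587). Panobinostat left Adam17 at 342 and 346 CPM (difference -0.07 ± 0.23, adjusted p = 0.877). BMDM alone held 267 and 229 CPM in normoxia and 278 and 231 CPM in hypoxia, a difference of 0.29 ± 0.20 (adjusted p = 0.322). BMDM of the panobinostat experiment held 294 and 287 CPM, 150.1 and 278 CPM, and 91.5 and 195 CPM with DMSO in normoxia, DMSO in hypoxia and panobinostat, and no difference was called. BMDM in co-culture held 215, 198 and 173 CPM in normoxia and 188, 141 and 235 CPM in hypoxia, of which GL261 RNA would give at most 5.11 CPM, and no difference was called there either.

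**Figure D5:**
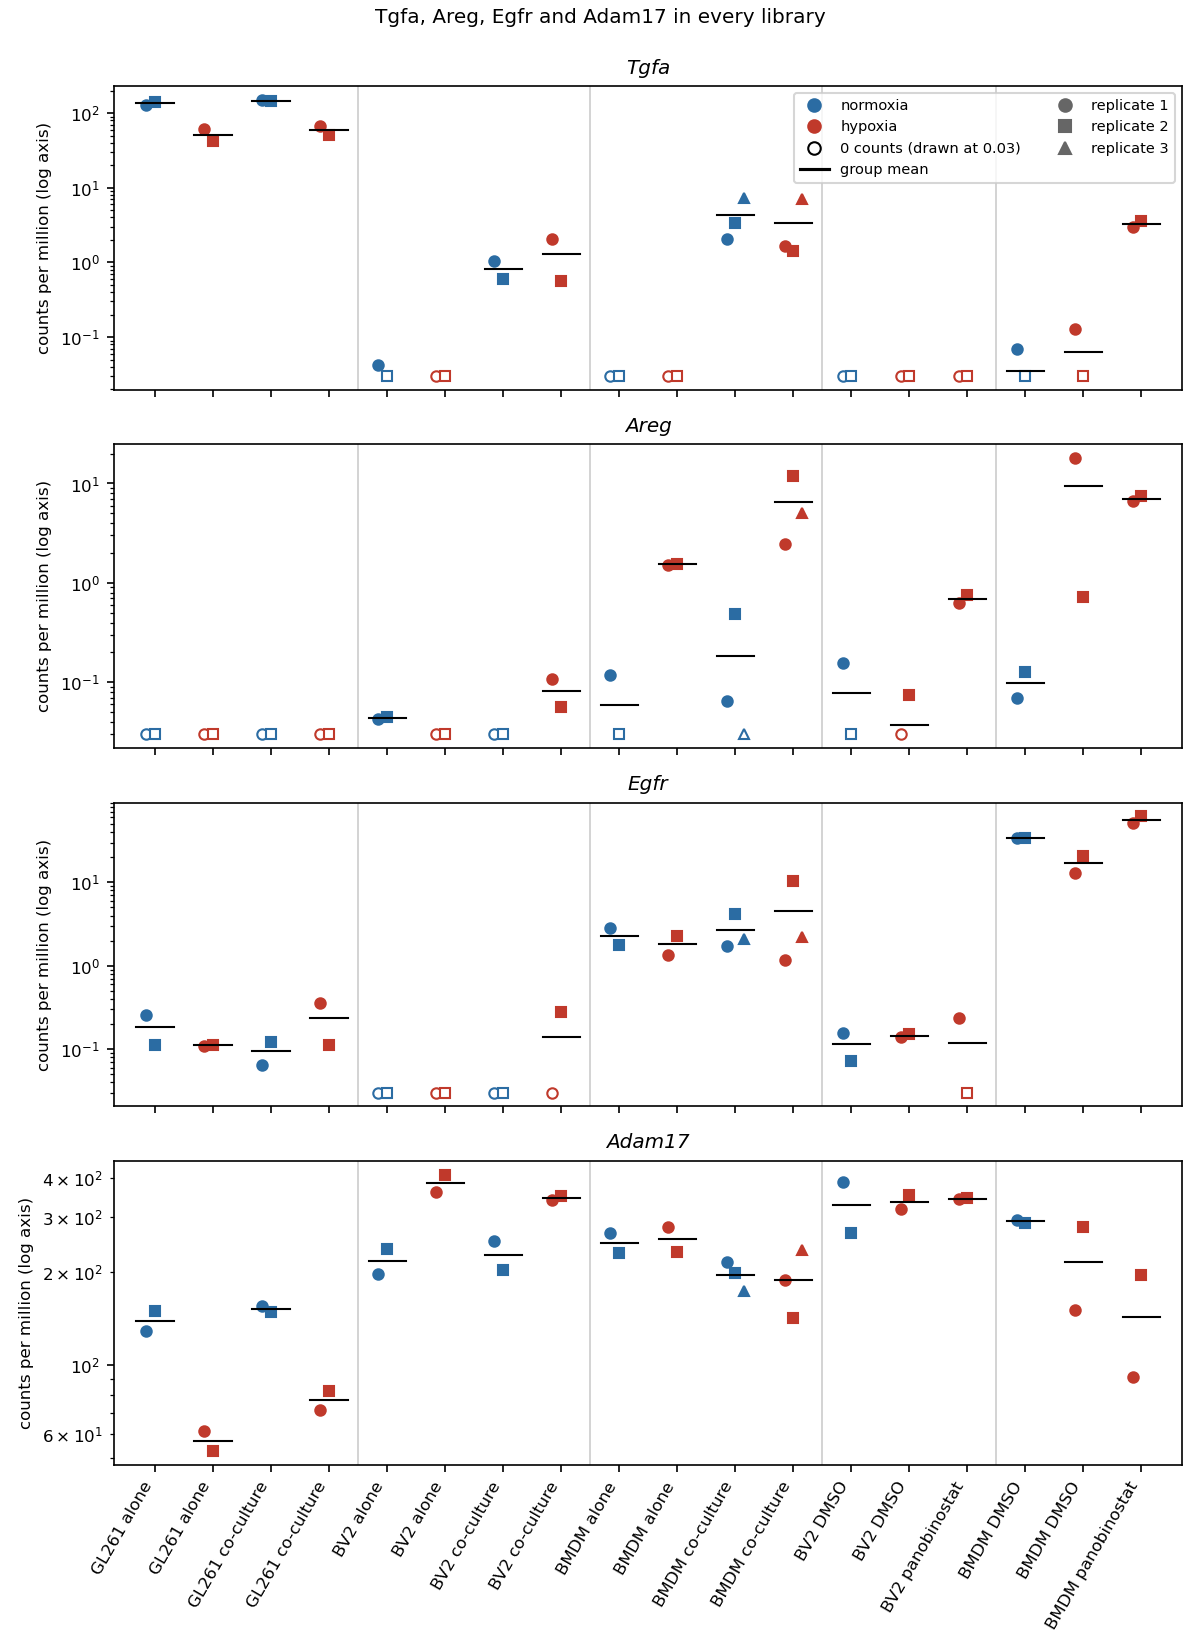
Tgfa, Areg, Egfr and Adam17 in CPM (log axes) in every library, by group, with the group mean as a line where it is above the drawing floor. Open symbols at 0.03 mark libraries with 0 counts. Tgfa fills the GL261 groups, Areg the hypoxic BMDM groups and Egfr the BMDM groups, whereas Adam17 is present in all.

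Per kilobase, Adam17 exceeded every ligand in each BV2 library and in each BMDM library of the first experiment, whereas with panobinostat BMDM replicate 1 held 12.8 CPM per kb of Adam17 and 18.5 of Hbegf. BV2 alone held 53.9 ± 4.95 CPM per kb of Adam17 and 1.75 ± 0.105 of Hbegf in hypoxia (SD, n = 2). Hypoxic GL261 alone held 7.97 ± 0.833 of Adam17 beside 107.7 of Hbegf. Ordered by mean CPM, the 4 GL261 groups led the 18 groups for Hbegf, with the 2 hypoxic groups apart from each other and from the rest (lowest co-culture library 630.4 CPM, highest alone 569 CPM). The BMDM groups of the panobinostat experiment came next, between means of 77.9 and 32.2 CPM, mixed with the hypoxic BMDM and BV2 co-cultures at 35.4 and 32.1 CPM, and the libraries of these neighbours overlapped. BV2 co-culture in normoxia (12.2 to 14.5 CPM), BV2 alone in normoxia (11.4 to 12.6 CPM) and BV2 with DMSO in normoxia (8.33 to 12.6 CPM) also overlapped.

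The rest of the pathway was read from 6 lists of other ligands, receptors, shedding factors, adaptors, feedback inhibitors and ERK-responsive genes. The lists were chosen with earlier results of these data known, and 47 of their 48 names were found. In GL261 alone 42 were tested, of which 18 rose and 4 fell with hypoxia, with a median log2 change of 0.33 beside -0.03 over all genes. In GL261 co-cultures 26 rose and 4 fell. In BV2 alone 17 of 40 rose and 10 fell, with a median of 0.41 beside 0.00 over all genes. In BMDM alone 8 of 43 rose and 2 fell, where 13.3% of all genes rose and 10.6% fell. The shares of all genes called in GL261 and BV2 are those given above.

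Among receptors, GL261 held Erbb3 and Erbb2, with Egfr near the floor. Erbb3, a receptor of neuregulins with little kinase activity of its own, stood at 815 ± 114 CPM in normoxia and 465 ± 49.2 CPM in hypoxia (SD, n = 2) and fell by 0.75 ± 0.16 (adjusted p = 0.00276). Erbb2, the ligandless partner receptor, stood at 78.9 ± 10.2 CPM and 42.0 ± 4.59 CPM and fell by 0.86 ± 0.15 (adjusted p = 8.20e-04). Erbb4, the other receptor of Hbegf, is named here although its level falls outside the naming rule, and averaged 0.0775 CPM in normoxic and 0 in hypoxic GL261. BV2 alone held 0 counts of Erbb2 and Erbb4 and at most 0.304 CPM of Erbb3 as a group mean.

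Of the 6 other ligands, Egf was low everywhere, with a highest group mean of 7.63 ± 0.320 CPM in hypoxic GL261. Nrg4, a neuregulin that binds ERBB4, rose in hypoxic BV2 by 1.59 ± 0.39 (adjusted p = 0.002), to 3.01 ± 0.675 CPM. Nrg1 reached 14.9 ± 0.548 CPM in DMSO-treated normoxic BMDM and at most 0.318 CPM as a group mean in the first experiment, and the part of the fibroblast-like cells in it was not tested. With panobinostat, Erbb3 rose in BV2 by 5.76 ± 0.57 (adjusted p = 0.00189), from 0.145 ± 0.00787 to 9.01 ± 2.90 CPM.

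Among shedding and trafficking genes, Rhbdf2, which encodes iRhom2, a cofactor that brings ADAM17 to the cell surface, rose with hypoxia in GL261 by 1.69 ± 0.28 (adjusted p = 6.76e-04), from 6.39 to 19.8 CPM. It rose in BV2 by 1.53 ± 0.12 (adjusted p = 2.64e-08), from 25 to 69.5 CPM. In GL261 4 of 9 tested rose (Rhbdf2, Frmd8, Adam9 and Nrd1) and 2 fell, Adam12 by 1.52 ± 0.20 and the tetraspanin Cd9 by 1.24 ± 0.15. Of all genes, 23.2% were called higher and 21.4% lower there. In BV2 Rhbdf2 and Adam9 rose and Frmd8 and Adam10 fell, where 30.9% of all genes were called higher and 31% lower. Adam17 and Rhbdf2 moved in opposite directions in GL261 and in the same direction in BV2 alone.

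Among feedback inhibitors of the receptor, Errfi1 (MIG6), which binds and silences the EGFR kinase, rose with hypoxia in GL261 by 1.40 ± 0.16 (adjusted p = 5.83e-05), in BV2 by 1.17 ± 0.17 (adjusted p = 2.23e-05) and in BMDM by 0.88 ± 0.20 (adjusted p = 0.00973). It stood at 21.9 and 55.5 CPM in normoxic and hypoxic GL261 as group means, and at 26.0 and 109 CPM in GL261 co-cultures. It was higher in hypoxic GL261 with BV2 than alone, by 1.03 ± 0.15 (adjusted p = 0.0098), as were Socs3, Fos, Etv5 and Spry2. These 5 were the pathway genes called higher there among 42 tested, where 1.39% of all genes were called in either direction. Dusp4, an ERK phosphatase, rose in all 3 cells, by 1.11 in GL261, 1.28 in BV2 and 1.66 in BMDM, whereas Dusp6 fell in BV2 by 0.98 and in BMDM by 1.14. Cblb, a ubiquitin ligase of activated receptors, rose by 2.85 in BV2 and 2.73 in BMDM.

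Of the 10 ERK-responsive genes 7 rose with hypoxia in GL261 alone and none fell, with a median log2 change of 1.35, where 23.2% of all genes were called higher and 21.4% lower. They included Ier3 by 2.41, Fosl1 by 2.42 and Fos by 1.90. In BV2 4 rose and 4 fell, with a median of -0.28, where 30.9% of all genes were called higher and 31% lower. Etv4 and Fosl1 rose in GL261 (1.43 and 2.42) and fell in BV2 (-1.28 and -1.56). In BMDM alone only Ier3 was called, a rise of 4.60 ± 0.79 (adjusted p = 0.00251), among the 10 tested. Many of these genes answer to other signals than EGFR, and no receptor activity was measured.

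In BV2 co-cultures 11 of 40 pathway genes were higher than in BV2 alone in normoxia and 11 in hypoxia, where 5.77% and 8.13% of all genes were. Of these, 9 and 11 were at least 4-fold higher in GL261 alone than in BV2 alone, among them Erbb3, Timp3, Adam12 and Rhbdf1. Lower with co-culture were 12 in normoxia and 2 in hypoxia (Spred1 and Emp1), where 9.14% and 7.57% of all genes were. In BMDM co-cultures 2 of 43 were higher in normoxia and 4 in hypoxia, where 1.57% and 4.06% of all genes were, and all 6 calls were on genes at least 4-fold higher in GL261.

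Genes with the pattern most like each member were sought over the 18 group means of log2(CPM + 0.5), taken as deviations from the mean of the groups in the same fit, among 10770 genes. For Hbegf they were Bcat1 (r = 0.91), Artn (0.90) and Cdsn (0.89). For Tgfa they were Wasf3 (0.97), Tesc (0.97) and Hebp2 (0.96), for Areg Tmem45a (0.96), Krt19 (0.96) and H2-Ab1 (0.95), for Egfr Lmo7 (0.95), Srgap1 (0.92) and Cd248 (0.90), and for Adam17 Ggta1 (0.94), Glb1 (0.90) and Ergic3 (0.90). Ereg and Btc averaged below 1 CPM and were not searched. The group means share cells, partner RNA and, in the BMDM of the panobinostat experiment, the libraries with fibroblast markers.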

How the data were processed

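RNA of 38 libraries was sequenced and the authors deposited 3 tables of raw read counts per Ensembl gene, 1 column per library, all of which were used. Per the labels' protocols, cells were fixed in 3% glyoxal and poly(A) RNA was made into stranded libraries. Per the submitters' processing notes, the tools included Trimmomatic 0.36, STAR 2.6, SAMtools and HTSeq 0.9.1, with mm10. The strand setting is not given in the sources used here. Levels are CPM of the library total. The deposited counts were tested in edgeR 4.0.16 (quasi-likelihood F test; limma 3.58.1, R 4.3.3) with TMM scaling, filterByExpr defaults (minimum count 10, minimum total 15), 1 mean per group, 1 fit per cell and experiment, and Benjamini-Hochberg adjustment over all genes at 0.05. Comparisons between BV2 and GL261, or BV2 and BMDM with DMSO, used 1 fit over both. Called genes passed that threshold. The SE is the log2 fold change divided by the square root of F. DESeq2 1.42.0 (Wald test), its size factors in edgeR, no filter beyond 1 count, the replicate number as a block, leaving out each library, and subtraction of partner RNA were alternatives. Partner-specific genes had at least 20 CPM in the partner and a 100-fold ratio at both oxygen levels, with 0.5 CPM added and the members left out. No libraries were identical, and all 22 pairs of replicates differed beyond counting noise (chi-square per degree of freedom from 6.12 to 141.1). On simulated data edgeR called 95% of 2-fold changes at a spread like that of BV2 alone, and 1% of 2-fold and 29% of 4-fold changes at that of BMDM with DMSO, with 6.7% and 9.09% of the calls false. Replicate numbers come from titles that do not say they pair libraries. In the BMDM co-cultures, the one case with 3 shared numbers, same-numbered libraries deviated together (mean r = 0.44, lowest 0.31) and are taken as paired. The estimates printed for them nevertheless come from the fit without the block. The block changed no call on a member between oxygen levels there. The members and gene lists were chosen with earlier results of these data known. Pathway genes were named where they passed the threshold or had at least 5 CPM in the cell described, and the 3 most similar genes were named per member.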

Additional observations from a re-analysis of the deposited data

Results flagged for a closer look

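A total of 3 differences between effects passed the threshold. Only that of Adam17 is read as a test, since the others are of Hbegf. The hypoxia effect on Adam17 differed between BV2 and GL261 grown alone by 2.21 on the log2 scale (edgeR adjusted p = 1.77e-07). It was a rise in BV2 and a fall in GL261, with every hypoxic library of the first experiment beyond the normoxic ones. In BV2 with DMSO no rise was called (0.17 ± 0.23, edgeR adjusted p = 0.587), and the oxygen levels overlapped. The hypoxia effect on Hbegf differed between BV2 and GL261 grown alone by -2.01 (BV2 minus GL261). In BV2 it differed between co-culture and growth alone by 1.84. Both Hbegf values rest on levels that had led to the choice of the gene and are given as a description. No group had 4 or more libraries, so no single library was tested as an outlier.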

How the results depend on the processing

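With 2 or 3 libraries a group, many calls rest on single libraries. Of 808 recomputed log2 fold changes of the members 729 kept their direction and side of the threshold. By DESeq2 the number of genes called was 688 for the BV2 co-culture by hypoxia interaction, in GL261 with co-culture 162 in normoxia and 459 in hypoxia, in BMDM with co-culture 634 and 1733, for hypoxia in BMDM with DMSO 2247, for panobinostat in BMDM 2221, and for the differences between BV2 and BMDM 1167 (hypoxia) and 231 (panobinostat). DESeq2's size factors in edgeR gave 66 for panobinostat in BMDM. Without the filter there were 266 and 601 for GL261 co-culture in normoxia and hypoxia, 513 for BMDM co-culture in normoxia, 532 and 594 for hypoxia and panobinostat in BMDM, and 335 and 35 for the differences between BV2 and BMDM. With partner RNA subtracted there were 1252 and 1480 for BV2 co-culture in normoxia and hypoxia, 183 for its interaction, 12 for GL261 co-culture in normoxia, and 28 and 156 for BMDM co-culture. Under the settings of the report the counts were 316 for the BV2 interaction, 2152 and 2266 for BV2 co-culture, 78 and 211 for GL261 co-culture, 243 and 1053 for BMDM co-culture, 1941 for panobinostat in BV2, 72 and 0 for hypoxia and panobinostat in BMDM, and 106 and 4 for the differences.

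The replicate block gave 226 and 654 for GL261 co-culture, 432 for BMDM co-culture in normoxia, 4025 for panobinostat in BV2, 2127 and 2044 for hypoxia and panobinostat in BMDM, and 363 and 22 for the differences between BV2 and BMDM. Deviations of same-numbered libraries correlated on average at 0.07 in BV2, 0.32 in GL261 and 0.19 in BMDM, and at 0.42 (BV2) and 0.48 (BMDM) in the panobinostat experiment, where each cell's lowest was 0.24 and 0.34. Apart from the BMDM co-cultures, groups compared share only 2 numbers, too few for the check used, and whether the panobinostat libraries are paired was not settled. In BMDM with panobinostat the block gave 1.48 for Egfr (edgeR adjusted p = 0.0271), 5.02 for Tgfa (adjusted p = 0.0313) and 0.07 for Areg.

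Signs that turned were on differences that were not called. DESeq2 gave 0.40 for Tgfa between the hypoxia effects of BV2 and GL261, and subtraction gave -0.01 for Hbegf in BV2 co-culture in normoxia and 0.74 for Tgfa with hypoxia in BMDM co-culture. The cause was not tested. The share of BV2 RNA in hypoxic GL261 co-cultures was 0.263% from genes with a 30-fold ratio and 0.288% relative to co-cultured BV2.

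Leaving out each library in turn, the counts of genes ranged from 1288 to 1567 for hypoxia in BMDM alone (3542 with all libraries), 2920 to 4758 in BV2 with DMSO (4980) and 0 to 611 in BMDM with DMSO. They ranged from 451 to 1714 for BV2 co-culture in normoxia, 59 to 682 for its interaction, 1 to 15 and 74 to 329 for GL261 co-culture in normoxia and hypoxia, and 3 to 288 and 4 to 1792 for BMDM co-culture. They ranged from 292 to 1342 for panobinostat in BV2 and from 0 to 1203 and 0 to 82 for the differences between BV2 and BMDM. A lone library was then assumed to vary like the other groups.

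Log2 fold changes of members whose sign turned ranged as follows. Adam17 ran from -0.10 to 0.18 with hypoxia in BMDM co-culture, -0.37 to 0.18 between BV2 and BMDM with DMSO, -0.12 to 0.13 with co-culture in normoxic BV2 and -0.04 to 0.49 with hypoxia in BV2 with DMSO. Areg ran from -0.54 to 4.43 with co-culture in normoxic BMDM, -1.69 to 3.03 with panobinostat in BMDM and -3.62 to 0.39 between BV2 and BMDM. Egfr in BMDM ran from -0.22 to 1.76 and -0.25 to 0.63 with co-culture in hypoxia and normoxia, and from -0.58 to 1.45 and -0.57 to 0.23 with hypoxia in co-culture and alone. Ereg ran from -1.15 to 0.79 with hypoxia in BMDM with DMSO. Hbegf ran from -0.07 to 0.46 with panobinostat in BMDM, -0.52 to 0.07 with panobinostat in BV2 and -0.01 to 0.17 with co-culture in normoxic BV2. Tgfa ran from -1.29 to 0.41 with hypoxia in BMDM co-culture, -2.24 to 3.32 in BMDM with DMSO, -0.46 to 1.40 in BV2 co-culture, -0.03 to 0.61 with co-culture in hypoxic GL261 and -1.57 to 1.30 between the hypoxia effects of BV2 and GL261.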
